A study of Homo sapiens with 62 samples.

Results

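The 26S proteasome is the machine that degrades ubiquitin-tagged proteins in the cytosol and nucleus. Its 20S core is a barrel of alpha and beta subunits, with the proteolytic sites on PSMB5, PSMB6 and PSMB7, and it is capped by a 19S regulatory particle whose ATPases unfold the substrate and whose non-ATPase subunits bind and trim ubiquitin chains. Dedicated chaperones build the core and the cap, and activators such as PSME1 and PSME2 can take the place of the cap. The genes of the particle are known for being transcribed together through antioxidant response elements bound by NFE2L1 when proteasome activity runs short.

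The proteasome genes described here are those with a name of the form PSMA to PSMG followed by a number and a mean of at least 50 reads in the DMSO 4 h libraries of both lines. Of 48 names of this form, 43 met the minimum, among 11565 genes of 29794 in the tables that met it. The 43 genes were 7 of the alpha ring (PSMA1 to PSMA7), 6 of the beta ring (PSMB1, PSMB2, PSMB4 to PSMB7), the immunoproteasome subunit PSMB10, 6 ATPases (PSMC1 to PSMC6), 11 non-ATPase subunits of the 19S cap, 3 chaperones of the cap (PSMD5, PSMD9, PSMD10), 4 activators (PSME1 to PSME4), the regulator PSMF1 and 4 chaperones of the core (PSMG1 to PSMG4). The 5 names below the minimum were PSMA8, PSMB3, PSMB8, PSMB9 and PSMB11. PSMB3, a constitutive beta subunit, averaged 30 reads in AsPC-1 and 44 in T3M-4, and the immunoproteasome subunit PSMB9 averaged 3 and 42.25. PSMB8, another immunoproteasome subunit, had 0 reads in every DMSO 4 h library of both lines, and a count of 0 in a 3′UTR annotation does not show that a gene is silent. Among the 43 genes the mean number of reads per library lay between 625.4 (PSMD5) and 123173 (PSMD1) for AsPC-1, and between 637 (PSMD10) and 208238 (PSMD1) for T3M-4, and all 43 entered every test. PSMB2 in both lines and PSMA7 in T3M-4 had only even counts, so that each of their reads may have been counted more than once.

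SLAM-seq separated newly made RNA from the whole. Cells of 2 human pancreatic ductal adenocarcinoma lines took up 4-thiouridine (4sU) for 2 h before harvest, and reads with T>C conversions were counted beside all reads at the 3′ ends of transcripts. In every group, AsPC-1 (a classical-subtype line) and T3M-4 (a basal-like line) were selected pools in which KLF5 had been knocked out and supplied again from a lentiviral cDNA fused to the FKBP12-F36V degron and a FLAG tag. Cells of both lines received for 4 h either dTAGv-1 (dTAG), which degrades the tagged KLF5 protein, or its inactive analogue dTAGv-1-NEG (NEG), and either CB-6644, an inhibitor of the ATPase RUVBL1/2, NVP-2, an inhibitor of the elongation kinase CDK9, or the solvent DMSO. AsPC-1 cells also received CB-6644 or DMSO for 12 h. In AsPC-1, dTAG and NEG had 10 libraries each, CB-6644 and DMSO 5 each at 4 h and 4 each at 12 h, and NVP-2 had 4. Each of the 5 groups of T3M-4 had 4. CB-6644 and NVP-2 were set against the same DMSO 4 h libraries. Degradation acts on the protein, so transcript counts do not check it.

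The labelled share of a gene is the percentage of its reads in a library that carried T>C conversions. At a steady level, a larger share goes with faster turnover of the transcript and a smaller one with a stable transcript, but no spike-in and no library without 4sU was used here, so shares include any background conversions and amounts of RNA per cell were not measured. In bulk samples, fewer cells and less RNA per cell cannot be told apart. The libraries held 82676553 to 200298262 reads in AsPC-1 and 111132257 to 244524608 in T3M-4, and the all-reads column of AsPC-1 dTAG library 3.1 was left out because it repeated another column, so that 9 dTAG libraries entered any value that needs all reads. The epithelial markers KRT8, KRT18, KRT19 and EPCAM were detected in both lines, at 37.2 CPM (EPCAM in T3M-4) or more. KRT5 and TP63 were near 0 in AsPC-1 and HNF4A in T3M-4, and S100A2 averaged 2067 CPM in T3M-4 and 33 CPM in AsPC-1. The leukocyte markers PTPRC and CD3E, COL1A2 and the endothelial PECAM1 were at or near 0 (0.267 CPM or less), while the stromal marker COL1A1 averaged 7.01 CPM in T3M-4. Where libraries of a group came from 1 culture, the p-values measure the spread between libraries only.

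Promoter sequences were read from RefSeq (GRCh38.p14), from 250 bases before to 50 bases after each gene's start. Of the 43 genes, 37 had an entry, and PSMA7, PSMB1, PSMB6, PSMB7, PSMD4 and PSMG3 did not. On either strand, the antioxidant response element letters TGACNNNGC were in 11 of the 37 (29.73%) against 13.56% of 27305 promoters, and the GC box GGGCGG in 24 (64.86%) against 44.59%. The CCAAT box was in 16 (43.24%, all promoters 35.7%) and the CACCC box CCCACCC, the kind of letters Krüppel-like factors bind, in 7 (18.92%, all promoters 18.76%). The shares are descriptions of 300-base windows, and a match is not a shown binding site. The 27305 promoters were not limited to genes expressed in these lines, as the 43 genes were. Whether expressed genes in general differ from all promoters in these motifs was not tested. Matches to the GC box and the CACCC box can share bases. The promoters of PSMD3, a scaffold subunit of the cap, PSME1, the gene with the lowest labelled share, and PSMG2, a core chaperone with one of the highest, are shown because each holds the NFE2L1-type element and because they span the range of shares described next. Capitals mark matches to any of the 4 motifs. PSMD3 lies at chr17:39980557-39980856, PSME1 at chr14:24135944-24136243 and PSMG2 at chr18:12658488-12658787, all on the plus strand.
PSMD3: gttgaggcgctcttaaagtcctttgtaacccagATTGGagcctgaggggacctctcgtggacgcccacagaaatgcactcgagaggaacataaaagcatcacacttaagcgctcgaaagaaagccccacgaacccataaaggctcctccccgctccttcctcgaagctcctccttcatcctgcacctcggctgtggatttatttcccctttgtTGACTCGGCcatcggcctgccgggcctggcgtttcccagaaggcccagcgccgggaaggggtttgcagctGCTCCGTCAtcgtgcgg
PSME1: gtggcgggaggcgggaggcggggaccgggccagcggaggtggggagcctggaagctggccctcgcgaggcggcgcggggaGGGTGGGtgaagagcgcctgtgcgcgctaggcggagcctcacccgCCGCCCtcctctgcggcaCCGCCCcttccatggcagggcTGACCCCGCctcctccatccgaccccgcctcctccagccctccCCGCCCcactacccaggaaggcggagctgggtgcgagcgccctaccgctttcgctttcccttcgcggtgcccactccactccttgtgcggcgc
PSMG2: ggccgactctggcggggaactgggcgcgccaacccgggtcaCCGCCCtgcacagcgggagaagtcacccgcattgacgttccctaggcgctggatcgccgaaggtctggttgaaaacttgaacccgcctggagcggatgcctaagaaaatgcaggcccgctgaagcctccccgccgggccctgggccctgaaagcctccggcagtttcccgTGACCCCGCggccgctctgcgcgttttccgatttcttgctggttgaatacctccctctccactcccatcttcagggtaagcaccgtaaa

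In untreated cells the proteasome transcripts carried few new reads. In DMSO 4 h libraries of AsPC-1 the median labelled share of the 43 genes was 8.57%, against 15.3% over all 12115 genes with a mean of at least 50 reads there, and 37 of the 43 were under the median of all genes. In T3M-4 the median was 9.54% against 17.6% over 13504 genes, with 40 of 43 under it. In the lowest 25% of all genes were 24 and 25 of the 43, and in the highest 25% were 0 in either line. These comparisons set a chosen family beside all genes and carry no test.

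**Figure D1:**
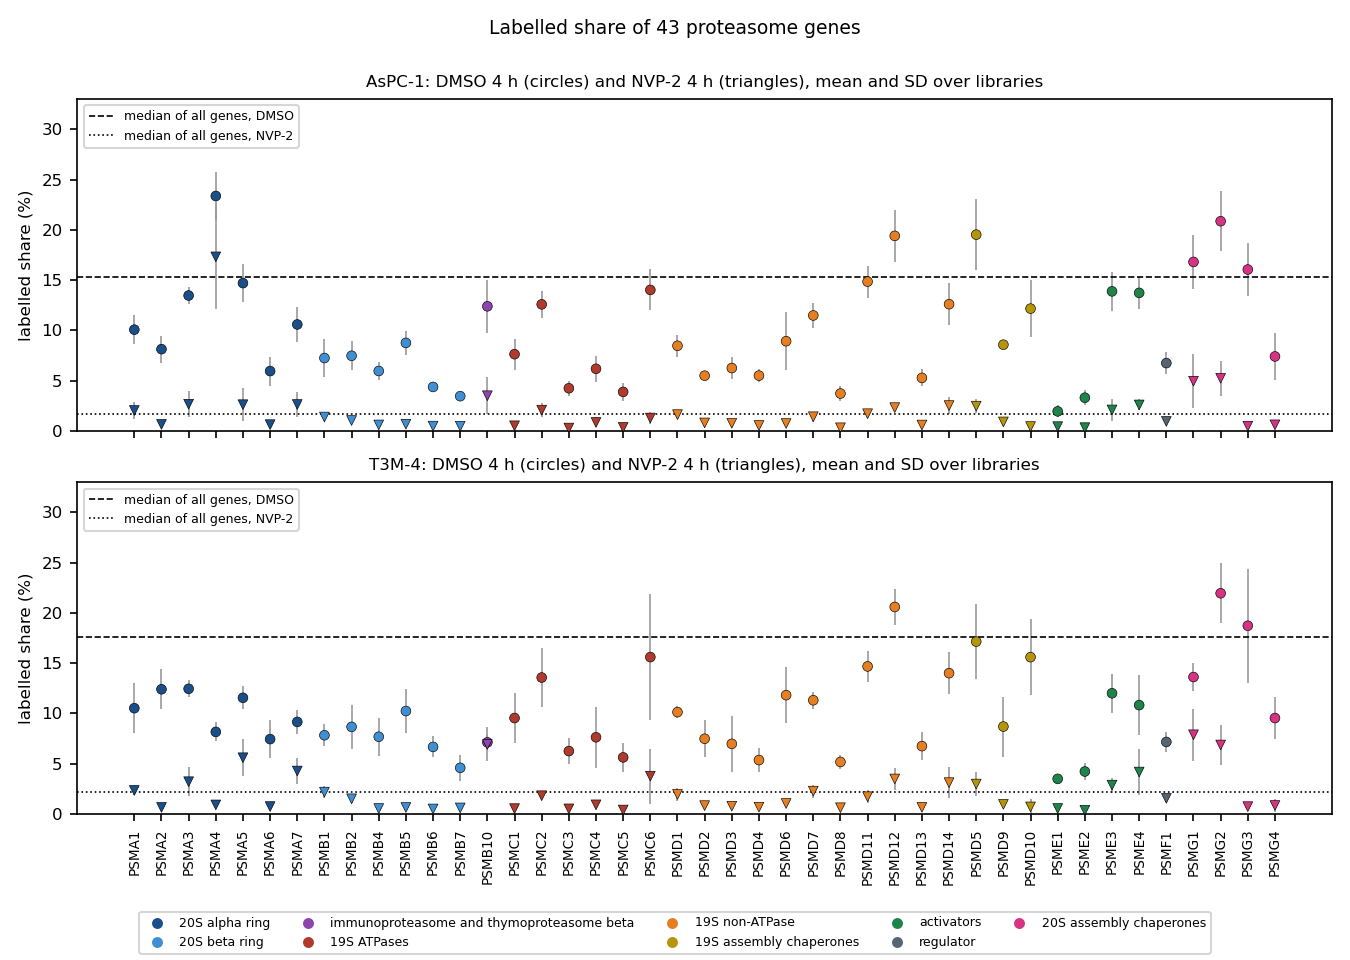
Labelled share (percentage of a gene's reads with T>C conversions, vertical axis) of each of the 43 proteasome genes (horizontal axis, coloured by role) in AsPC-1 (top) and T3M-4 (bottom). Circles are means over the DMSO 4 h libraries and triangles over the NVP-2 libraries, with SD bars, and lines mark the median of all genes; with DMSO most circles lie below the 15.3% (AsPC-1) and 17.6% (T3M-4) lines, and with NVP-2 only PSMA4 in AsPC-1 is above 10%.

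The activators PSME1 and PSME2, which form the interferon-inducible PA28 cap, had the lowest shares of all members in both lines. The other activators, PSME3 and PSME4, averaged 13.9% and 13.7% in AsPC-1 and 12.0% and 10.8% in T3M-4. PSME1 stood at 1.27%, 2.82%, 1.61%, 2.26% and 1.72% in the AsPC-1 DMSO libraries (mean 1.94% ± 0.609, SD, n = 5) and at 3.59%, 3.51%, 3.72% and 3.14% in those of T3M-4 (3.49% ± 0.252, n = 4). PSME2 averaged 3.3% and 4.22%. The third lowest was PSMB7, which carries the trypsin-like site of the core, at 3.88%, 3.97%, 3.08%, 3.15% and 3.15% in AsPC-1 and 5.67%, 5.62%, 3.02% and 4.05% in T3M-4. The other catalytic subunits had larger shares, 4.37% ± 0.20 and 6.67% for PSMB6, the caspase-like site, and 8.75% and 10.2% for PSMB5, the chymotrypsin-like site. The annotated 3′UTRs had 326 bases in PSME1, 50 in PSME2, 136 in PSMB7, 181 in PSMB6 and 592 in PSMB5.

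At the other end stood some of the chaperones that build the particle and a few of its structural subunits. The core chaperone PSMG2 averaged 20.9% in AsPC-1 (17.5% to 24.1% over 5 libraries) and 22% in T3M-4 (19.2% to 25.1% over 4), the cap chaperone PSMD5 19.5% and 17.1%, and the core chaperone PSMG3 16.1% and 18.7%. The other chaperones were not all high, with 7.40% and 9.54% for PSMG4 and 8.57% and 8.70% for PSMD9. Role medians over the genes of a role were 16.4% and 16.2% for the 4 core chaperones, 12.2% and 15.6% for the 3 cap chaperones, 10.6% and 10.5% for the alpha ring, 6.60% and 7.76% for the beta ring and 6.90% and 8.59% for the ATPases. Not every structural subunit was low: PSMD12, a scaffold subunit of the cap's lid, averaged 19.4% and 20.6%. Within a role the shares spread widely, from 3.88% (PSMC5) to 14.0% (PSMC6) among the ATPases of AsPC-1.

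PSMA4, an alpha-ring subunit, was the member with the highest share in AsPC-1 and was ordinary in T3M-4. Its share was 25.4%, 24.1%, 25.7%, 20.5% and 21.1% in the 5 AsPC-1 libraries (mean 23.4% ± 2.43) and 8.70%, 9.12%, 7.0% and 7.84% in the 4 T3M-4 libraries (8.17% ± 0.942). No library of one line reached the range of the other. Whether T>C reads of a source other than labelling add to its AsPC-1 share was not tested. PSMB10 also stood higher in AsPC-1 (9.54% to 15.6%) than in T3M-4 (6.45% to 7.80%), but in the AsPC-1 DMSO 12 h libraries its mean was 5.58%. PSMA4 has a 3′UTR of 3613 annotated bases, on chromosome 15 from 78540405 to 78552417 (GRCh38, gene record), against a median of 592 bases over the 43 genes.

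A read can carry a conversion only where the transcript has T. The median T content of the annotated 3′UTRs was 30.1% for the 43 genes and 29.7% for all genes, while their 3′UTRs were shorter, 592 against 1730 bases among the 11034 annotated AsPC-1 genes. Ranked by share among all genes, the 43 had a median percentile of 22.5 in AsPC-1 and 21.9 in T3M-4. Ranked only against genes of the same T-content decile, it was 20.2 and 18.9, with 38 and 41 of the 43 below the 50th percentile. Ranked against genes of the same decile of 3′UTR length, the median percentile was higher, 34.2 and 31.0, with 32 and 36 of the 43 below the 50th. Across the 43 genes the share was larger with more T (Spearman's rho 0.52 in AsPC-1 and 0.59 in T3M-4) and with a longer 3′UTR (0.50 and 0.44), which are descriptions over genes of the same libraries. The part of either in the low shares was not tested. Within T3M-4, the libraries of batch 1 had higher shares than those of batch 2 for most named genes, PSMG3 for example 22.7% and 24.5% against 14.1% and 13.6%.

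The 2 lines differed in the level of the proteasome transcripts. Of the 43 genes, 19 had more reads in T3M-4 than in AsPC-1 DMSO 4 h libraries (30.5% of all 15464 genes were called higher) and 4 had fewer (25.2% of all genes), with a median log2 difference of 0.51 over the 43 and 0.09 over all genes. The genes higher in T3M-4 were 3 of the alpha ring, 2 of the beta ring, PSMB10, 3 ATPases, 4 non-ATPase subunits of the cap, the cap chaperone PSMD5, 3 activators and the core chaperones PSMG3 and PSMG4. Those lower were PSMA7, the cap chaperone PSMD10, the activator PSME4 and the deubiquitinase PSMD14. Levels here are CPM (counts scaled to a common library size, edgeR's unit) of all reads after TMM scaling, and calls are edgeR quasi-likelihood tests at a Benjamini-Hochberg adjusted p under 0.05.

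PSME1 stood at 195, 175, 137, 145 and 135 CPM in AsPC-1 and 388, 374, 313 and 284 CPM in T3M-4, a log2 difference of 1.11 ± 0.16 (SE, edgeR adjusted p = 0.0002151). The ATPase PSMC5 stood at 198, 287, 310, 270 and 276 CPM against 777, 468, 543 and 562 CPM (1.13 ± 0.18, edgeR adjusted p = 0.0004305). In neither gene did the lines overlap. The alpha subunit PSMA7, whose counts were all even in T3M-4 but not in AsPC-1, went the other way, 139, 165, 204, 168 and 178 CPM in AsPC-1 against 97.9, 59.9, 96.3 and 87.5 CPM in T3M-4 (-1.0 ± 0.18, edgeR adjusted p = 0.0008253), again without overlap. With its T3M-4 counts halved, as double counting would require, the difference was -2.0. The lid subunit PSMD11 stood at 147, 196, 276, 211 and 152 CPM against 349 to 556 CPM in 4 T3M-4 libraries (1.21), and the alpha subunit PSMA6 at 149, 186, 261, 182 and 188 CPM against 443, 355, 371 and 371 CPM (0.99). The activator PSME3, the nuclear relative of the PA28 pair, stood at 153, 127, 149, 142 and 114 CPM against 189, 403, 333 and 319 CPM (1.18). These 3 genes too were higher in every T3M-4 library, PSME3 in library 1.1 by less than in the others. On the counts as deposited, the largest differences of the 43 were those of PSME2 (1.56), where the lines overlapped, and PSMD12 (1.25), where they did not. PSMB5 was higher in T3M-4 (1.07), PSMB6 (-0.03) and PSMB7 (0.46) passed no threshold. Line, clone history and handling cannot be told apart.

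The balance of this difference moved with the AsPC-1 libraries used. AsPC-1 libraries fell into 3 sets that crossed all treatments when they were clustered on 2000 other variable genes, 17 in set A, 16 in set B and 8 in set C, and the sum of the 43 genes differed between them. It was 8029.84 to 9711.94 CPM, here of the unscaled library total, in set A, 5354.99 to 6353.62 in set B and 5291.74 to 5812.59 in set C. No library of set A overlapped with the others, within any of the 7 AsPC-1 groups. The sets were defined from the libraries themselves and coincided with no treatment, but within each group they followed the replicate numbers of the labels. Set C was the 8 libraries numbered 2.1 and 2.2 of the DMSO, CB-6644, dTAG and NEG 4 h groups. In the remaining NEG and dTAG libraries and at 12 h, the first 2 numbers were in set B and the last 2 in set A, and of NVP-2 1.1 and 1.2 were in set B and 2.1 and 2.2 in set A. The number 1.2 fell in different sets at 4 h. With DMSO 1.1 and 1.2 were in set B and 1.3 in set A, and with CB-6644 1.1 was in set B and 1.2 and 1.3 in set A. Their differences are described with no test.

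**Figure D2:**
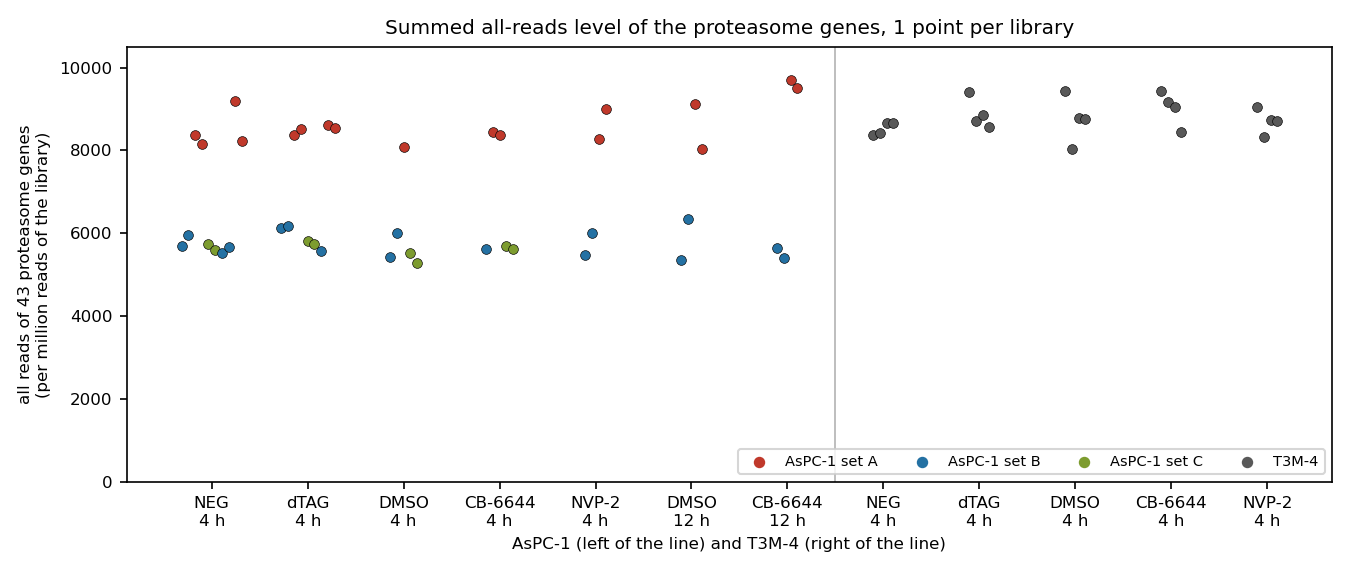
Summed all-reads level of the 43 proteasome genes (CPM of the unscaled library total, vertical axis), with 1 point per library, by group and line, coloured by set in AsPC-1. Set A lies between 8029.84 and 9711.94, above every other AsPC-1 library, and the lowest T3M-4 library lies at 8032.65.

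Set A minus the other sets gave a median log2 difference over the 43 genes of 0.50 in the NEG group (4 against 6 libraries), where the median over 13428 genes was -0.03, and 38 of the 43 lay above 0. The medians in the 6 other AsPC-1 groups were 0.37 to 0.60. In all 7 groups, 26 genes lay above 0, and PSMD6 and PSMB10 lay below 0. In the NEG group the difference was largest for PSMD13 (0.95), a lid subunit. For the labelled share, the library medians over the 43 genes overlapped in the NEG group, at 7.73% to 8.67% in set A and 8.33% to 9.59% in the others. They also overlapped in the dTAG, NVP-2 and CB-6644 4 h groups, and with DMSO 4 h the set A library lay within the others. The library medians were lower in set A without overlap only in the 12 h groups, of 2 against 2 libraries each. There they stood at 8.15% to 8.37% against 8.62% to 8.79% with DMSO and 7.95% to 8.03% against 8.43% to 8.95% with CB-6644. Set A made up 1 of 5 DMSO and 2 of 4 NVP-2 libraries, 2 of 5 CB-6644 libraries and 2 of 4 libraries in each 12 h group.

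With NEG 4 h libraries in place of DMSO, T3M-4 against AsPC-1 set A gave 13 members higher (33.6% of all genes) and 11 lower (25.6%), and against sets B and C 23 higher (31.8%) and 3 lower (29.7%). The median log2 difference over the 43 was 0.27 against set A (all genes 0.12) and 0.59 against sets B and C (all genes 0.01).

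Labelled shares were compared between the lines as well. With limma on log2 shares, 3 members were higher in T3M-4 (PSMB6, PSME1 and PSMA2; 11.4% of all genes) and 2 were lower (PSMA4 and PSMB10; 3.64% of all genes). PSMA4, whose libraries are given above, differed by -1.52 ± 0.13 (log2, SE, limma adjusted p = 0.0002295). PSMB6 differed by 0.60 ± 0.13 (limma adjusted p = 0.01865), with 4.12% to 4.62% in the AsPC-1 and 5.69% to 7.72% in the T3M-4 libraries. Relative to the share of each whole library, which was 9.36% to 10.6% in AsPC-1 and 11.1% to 14.1% in T3M-4, 1 member was higher (PSMB6; 3.24% of all genes) and 9 lower (10.0% of all genes), PSMA4 by 1.81 below. The calls fell from 5 to 1 without T3M-4 library 1.1 or 1.2 and to 3 without AsPC-1 library 1.3 or 2.2 or T3M-4 library 2.2, and PSMA4 was called under every alternative. All AsPC-1 DMSO 4 h libraries were of batch 1 and those of T3M-4 of both batches, so a fit within batch 2 was not possible. A fit within batch 1 alone was not run.

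**Figure D3:**
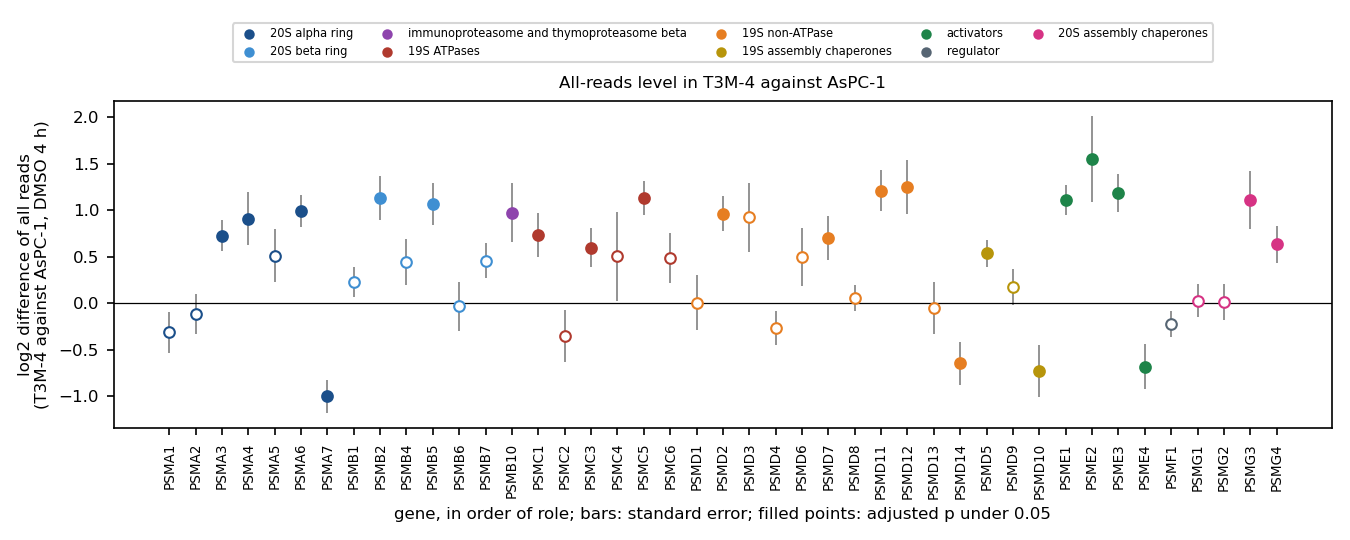
Log2 difference in all reads, T3M-4 against AsPC-1 in DMSO 4 h libraries (vertical axis), for each of the 43 genes in order of role; bars are standard errors and filled points passed an edgeR adjusted p under 0.05. Of the filled points 19 lie above 0, up to PSME2 at 1.56, and 4 below it, down to PSMA7 at -1.0.

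No proteasome gene passed the test in new or total RNA after degradation of KLF5. After 4 h of dTAG against NEG, 0 of 43 genes were called in T>C reads in AsPC-1 (10 against 10 libraries, 2.4% of 11696 genes called) and 0 in T3M-4 (4 against 4, 0.834% of 13424 genes). At an unadjusted p under 0.05 stood 2 and 1 of the 43, and DESeq2 called 0 and 0. The median log2 change of the 43 was 0.04 and -0.04, with extremes of -0.29 (PSMD3) and 0.58 (PSMB1) in AsPC-1 and -0.56 (PSMA5) and 0.51 (PSMD9) in T3M-4. In all reads 0 of 43 were called in either line (0.797% and 0.0191% of all genes), 1 and 0 at an unadjusted p under 0.05, and DESeq2 called 0 and 0.

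The smallest p in AsPC-1 belonged to PSMG2, with 206 to 420 CPM of T>C reads (median 302) in 10 NEG libraries and 293 to 457 (median 388) in 10 dTAG libraries. The ranges overlapped, and the change of 0.28 ± 0.11 did not pass (edgeR adjusted p = 0.2913). Its all reads had the smallest p of the 43 as well, with 115 to 178 CPM (median 144) in NEG and 136 to 245 CPM (median 159) in dTAG (0.28 ± 0.11, edgeR adjusted p = 0.5262). The alpha subunit PSMA5 was next in T>C reads, at 12.8 to 28.7 CPM (median 21.6) and 18.6 to 36.1 CPM (median 27.8), again with overlap. In T3M-4 the smallest p was that of the cap chaperone PSMD9, at 180, 153, 136 and 168 CPM in NEG and 273, 199, 207 and 229 CPM in dTAG. These groups did not overlap, yet 0.51 ± 0.18 did not pass over all genes (edgeR adjusted p = 0.4141). PSMG2, next in T3M-4, stood at 306, 313, 230 and 338 CPM in NEG and at 170, 287, 238 and 225 CPM in dTAG (-0.37), the opposite sign to AsPC-1. Of the 26 other genes of the pathway, such as the core chaperone POMP, the ubiquitin gene UBB and the transcription factor NFE2L1, 0 were called in T>C reads in either line. The smallest p values among them were those of ZFAND5, UBB and NFE2L1 in AsPC-1 and ADRM1, RPS27A and ZFAND5 in T3M-4. The difference of the dTAG effect between lines was called for 0 of 43 (0.0426% of all genes), with 3 at an unadjusted p under 0.05, among them PSMD9 (0.70 ± 0.22, edgeR adjusted p = 0.5881) and PSMG2 (-0.62 ± 0.22, edgeR adjusted p = 0.6669).

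The labelled share fell with dTAG in AsPC-1, in the proteasome genes about as far as in all genes. It was lower for 23 of 43 genes (37.8% of all 12334 genes called lower), with a median log2 change of -0.26 over the 43 and -0.27 over all genes. PSMA2 had 7.71% to 10.3% (median 9.01%) in 10 NEG libraries and 5.53% to 8.14% (median 6.62%) in 9 dTAG libraries, a change of -0.39 ± 0.07 (limma adjusted p = 0.001415). PSMD9 had 8.28% to 9.59% (median 8.74%) and 6.46% to 8.02% (median 7.50%), with no overlap (-0.25 ± 0.05, limma adjusted p = 0.002798). The lid subunit PSMD12 had 14.1% to 20.1% (median 18.2%) and 10.2% to 16% (median 14%), and PSMA6 5.3% to 6.74% (median 5.7%) and 3.38% to 5.49% (median 4.79%). In both genes the ranges overlapped, as they did in PSMD11 (medians 14.8% and 12%) and the ATPase PSMC2 (11.8% and 9.6%), but the dTAG median lay below every NEG library in all 4. The shares of the whole libraries moved too, 7.93% to 10.1% in NEG and 7.58% to 8.67% in dTAG. Relative to the library, 0 of 43 were called (1.25% of all genes), 1 at an unadjusted p under 0.05. With experiment standing for the first digit of the replicate number, 0 of 43 were called without experiment 1 or in batch 2 alone, and 9 without experiment 2. In T3M-4 0 of 43 were called (0.11% of all genes), 1 at an unadjusted p under 0.05.

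CB-6644 changed no proteasome gene past the threshold in any of the 3 comparisons. In T>C reads 0 of 43 were called after 4 h in AsPC-1 (5 against 5 libraries), after 4 h in T3M-4 (4 against 4) and after 12 h in AsPC-1 (4 against 4), and 0% of all genes were called in each. At an unadjusted p under 0.05 stood 1, 3 and 0 of the 43, and DESeq2 called 0, 0 and 0. The medians over the 43 were 0.09, -0.09 and 0.04 on the log2 scale. In all reads 0 of 43 were called in each (0%, 0.0127% and 0% of all genes), with 0 of 43 at an unadjusted p under 0.05 and DESeq2 calls of 0, 0 and 0, and in labelled share 0 of 43 (0.263%, 0% and 0.00788% of all genes), with 7, 0 and 1 at an unadjusted p under 0.05.

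The largest change after 4 h in AsPC-1 was that of PSME2, at 21.5, 10.4, 28.7, 17.1 and 13.9 CPM of T>C reads in DMSO and 13.5, 15.0, 5.98, 9.07 and 6.4 CPM in CB-6644 (-0.87 ± 0.33, edgeR adjusted p = 0.9795). The ranges overlapped, as did those of the ATPase PSMC6, at 53.1 to 123 CPM in DMSO and 97.5 to 150 CPM in CB-6644. In T3M-4, the core chaperone PSMG1 stood at 20.9, 21.6, 19.6 and 20.2 CPM in DMSO and lower, without overlap, at 13.7, 12.1, 18.6 and 10.4 CPM in CB-6644, but -0.58 ± 0.22 did not pass (edgeR adjusted p = 0.9936). Another ATPase, PSMC2, stood at 350, 363, 215 and 231 CPM in DMSO and 234, 187, 180 and 177 CPM in CB-6644. The ranges overlapped, but it was lower in 4 of 4 same-numbered pairs. With the pairs as a block the change was -0.54 and did not pass either (edgeR adjusted p = 0.7254). At 12 h the smallest p was that of PSMD9, 167, 143, 201 and 181 CPM in DMSO and 177, 178, 231 and 203 CPM in CB-6644. None of the 26 pathway genes was called in any of the 3 comparisons. The difference of the 4 h effect between lines was called for 0 of 43 (0% of all genes, 0 at an unadjusted p under 0.05).

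NVP-2 lowered the labelled share of nearly every proteasome gene, as it did for most genes. In AsPC-1 42 of 43 genes fell (93.6% of all 12313 genes called lower) and in T3M-4 42 of 43 (89.8% of 13469). The median share of the 43 was 0.886% in AsPC-1, where it was 8.57% with DMSO, and 0.956% in T3M-4, where it was 9.54%. That of all genes fell from 15.3% to 1.66% and from 17.6% to 2.16%. As a percentage of its DMSO share, the median member kept 12.2% and 12.6%, and the median of all genes was 12.0% and 12.4%. The exceptions were PSMA4 in AsPC-1 and PSMB10 in T3M-4. By the batch number in the labels, which do not say what a batch was, all AsPC-1 NVP-2 libraries were of batch 2 and all DMSO 4 h libraries of batch 1, so batch and treatment coincide there.

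**Figure D4:**
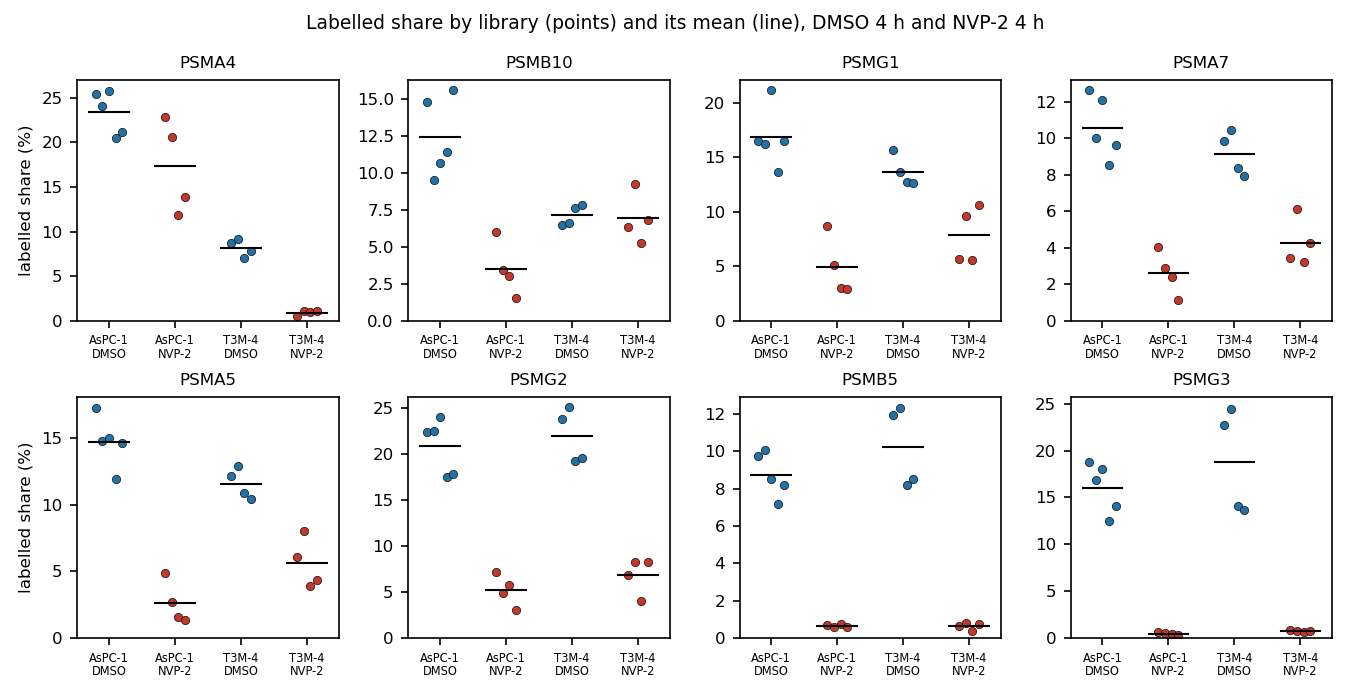
Labelled share (percent, vertical axis, a separate scale in each panel) of 8 proteasome genes in each DMSO 4 h (blue) and NVP-2 4 h (red) library of both lines; points are libraries and lines are means over 4 or 5 of them. PSMA4 keeps a mean of 17.3% in AsPC-1 and PSMB10 6.91% in T3M-4, while PSMG3 and PSMB5 lie under 1% in every NVP-2 library.

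PSMA4 kept most of its labelled share in AsPC-1, 22.8%, 20.6%, 11.9% and 13.9% in the 4 NVP-2 libraries against 20.5% to 25.7% in DMSO. The mean was 17.3%, and the change of -0.48 ± 0.24 did not pass (limma adjusted p = 0.0834). In T3M-4 the same gene fell to 0.549%, 1.08%, 0.929% and 1.03% from 7.0% to 9.12%, or 11.0% of its DMSO share. In T3M-4 it was PSMB10 that kept its share, 6.33%, 9.24%, 5.24% and 6.84% in NVP-2 against 6.45%, 6.61%, 7.64% and 7.80% in DMSO (-0.07 ± 0.30, limma adjusted p = 0.8289). In AsPC-1 PSMB10 kept 28.2%, with 6.0%, 3.4%, 3.05% and 1.51% in NVP-2. Each gene was chosen after its values were seen as the exception of its line. In AsPC-1, NVP-2 libraries 1.1 and 1.2, listed first for each gene, were of set B, and 2.1 and 2.2 of set A. With no library without 4sU, T>C reads of a source other than labelling cannot be told from new RNA in either gene. The annotated 3′UTR of PSMB10 also overlaps exons of another gene on the same strand.

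The core chaperones were far apart in the share they kept. PSMG3 had 0.595%, 0.526%, 0.425% and 0.296% in the NVP-2 libraries of AsPC-1, 2.87% of its DMSO share (-5.13 ± 0.26, limma adjusted p = 5.377e-07), and 0.805%, 0.702%, 0.649% and 0.736% in those of T3M-4, 3.86% (-4.64 ± 0.32, limma adjusted p = 2.951e-05). PSMG1, which pairs with PSMG2 in the first chaperone complex of the core, kept 29.4% and 57.8%, PSMG2 25.1% and 31.2%, and PSMG4 8.03% and 8.78%. Both chaperones of this pair were thus among the 4 members of AsPC-1 and the 8 of T3M-4 that kept over 25%, with 3 in common to the lines. Among all genes, the 25.1% kept by PSMG2 in AsPC-1 lay at percentile 87.3. The 25.7% kept by PSMA3 in T3M-4 lay at percentile 81.4. The cap chaperone PSMD10, at 9.42% to 16.4% and 11.1% to 19.1% with DMSO, kept 3.47% and 4.49%, with 0 T>C reads of 603 in AsPC-1 NVP-2 library 1.2 and 0 of 787 in T3M-4 NVP-2 library 2.1, which allow shares of up to 0.498% and 0.381% from counting error alone. Under 10% were kept by 14 genes in each line, 11 of them in both. Among all genes, the 9.86% kept by PSMB4 in AsPC-1 lay at percentile 38.7, and the 9.83% kept by PSMA6 in T3M-4 at 38.6. These counts describe the family and carry no test.

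The catalytic subunits PSMB5, PSMB6 and PSMB7 each had shares under 1% in every NVP-2 library. PSMB5 went from 9.75%, 10.1%, 8.51%, 7.18% and 8.22% to 0.686%, 0.603%, 0.772% and 0.574% in AsPC-1 (7.53% kept, -3.73 ± 0.19, limma adjusted p = 5.377e-07) and from 11.9%, 12.3%, 8.21% and 8.51% to 0.661%, 0.793%, 0.377% and 0.735% in T3M-4 (6.26% kept). PSMB6, whose DMSO ranges are given above, had 0.607%, 0.421%, 0.415% and 0.423% in AsPC-1 and 0.294%, 0.509%, 0.557% and 0.618% in T3M-4. PSMB10, the immunoproteasome counterpart of PSMB7, had a share above 1% in every NVP-2 library of both lines. The alpha subunit PSMA2 fell to 0.432% to 0.761% in AsPC-1 and to 0.466% to 0.851% in T3M-4, and the ATPase PSMC1 to 0.442% to 0.596% in AsPC-1. In T3M-4 the ATPase PSMC5 had 3.83% to 6.84% with DMSO and 0.337% to 0.484% with NVP-2, and the beta subunit PSMB4 5.93% to 9.87% and 0.382% to 0.672%. The cap subunit PSMD6 had 5.49%, 12.5%, 11.1%, 6.87% and 8.67% with DMSO and 0.742%, 0.782%, 0.497% and 0.882% with NVP-2 in AsPC-1. Other than in PSMB10, in none of these did the NVP-2 and DMSO ranges overlap.

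Relative to the share of the whole library, which was 1.35% to 1.91% in the AsPC-1 and 1.80% to 2.80% in the T3M-4 NVP-2 libraries, members moved both ways. In AsPC-1, 2 were higher (PSMA4 by 2.21 and PSMG2 by 0.63 on the log2 scale; 5.81% of all genes) and 10 lower (24.1% of all genes), PSMG3 by 2.45 below. In T3M-4, 4 were higher (PSMB10 by 2.41, PSMG1 by 1.64, PSMA5 by 1.38 and PSMA7 by 1.34; 6.01% of all genes) and 9 lower (20.1% of all genes). The catalytic subunits PSMB5 and PSMB6 and the beta subunit PSMB4 were among the lower in both lines.

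T>C reads scaled by TMM to the remaining T>C pool give the place of a gene within the new RNA, not its amount. On that scale 11 of 43 genes were higher in AsPC-1 (12.9% of 11498 genes) and 1 lower (17.6%), and 9 were higher in T3M-4 (12.4% of 12242 genes) and 2 lower (14.2%), with medians over the 43 of 0.35 and 0.20 against -0.05 and -0.12 over all genes. Scaled by all reads, the direction turned: 42 of the 43 were lower in AsPC-1 (95.3% of all genes) and 41 in T3M-4 (87.1%), with medians of -2.89 and -2.90 against -3.30 and -3.11 over all genes. The alpha ring, 7 of the 43 genes, held 4 of the 11 genes higher in AsPC-1 and 4 of the 9 in T3M-4. It also held 1 of the 2 genes lower in T3M-4, and no ATPase was called in either line.

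**Figure D5:**
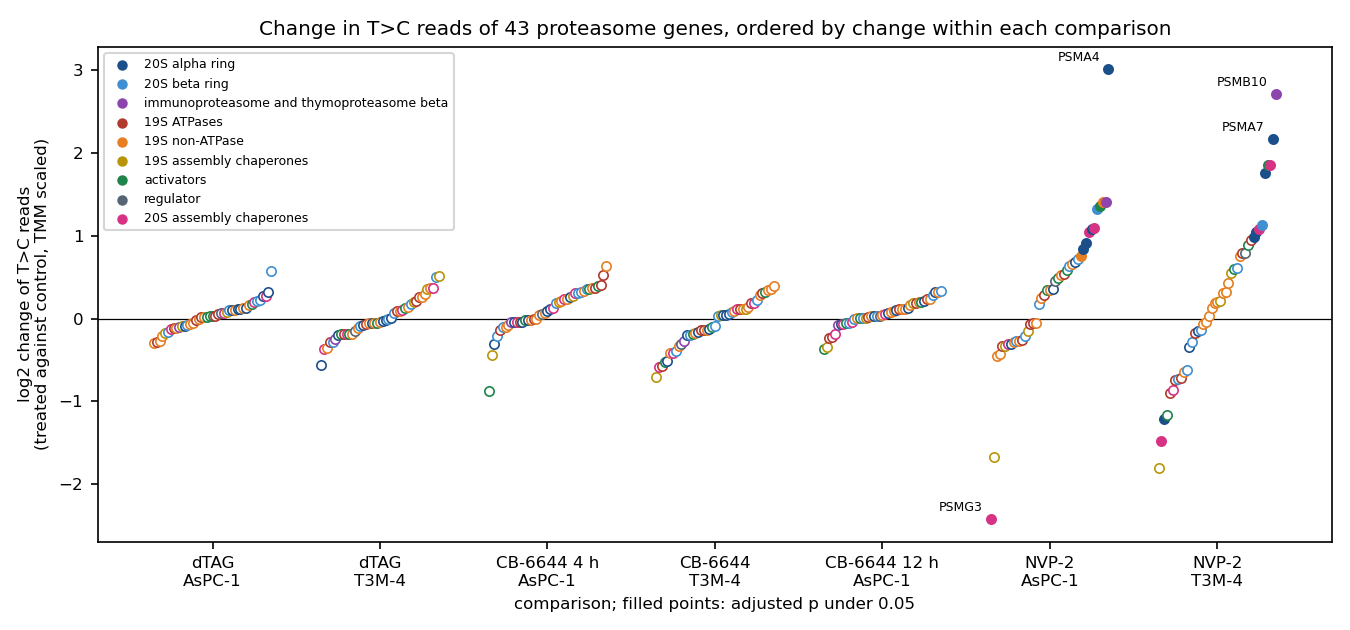
Log2 change in T>C reads (TMM-scaled, treated against control) of the 43 genes in the 7 treatment comparisons, ordered by change within each and coloured by role; filled points passed an edgeR adjusted p under 0.05. Filled points occur with NVP-2 alone, 12 in AsPC-1 and 11 in T3M-4, led upward by PSMA4 (3.01) and PSMB10 (2.71), which lie at -0.21 and -0.26 when scaled by all reads, and including PSMG3 (-2.42 and -1.48).

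PSMA4 stood at 568.3, 346, 681, 344 and 412 CPM of T>C reads in the AsPC-1 DMSO libraries and at 4652, 4637, 2231 and 3622 CPM in NVP-2 (3.01 ± 0.30, edgeR adjusted p = 6.092e-05), but scaled by all reads at -0.21. PSMG3 went from 53.0, 101, 54.8, 102 and 78.6 CPM to 7.55, 19.8, 15.4 and 15.4 CPM (-2.42 ± 0.35, edgeR adjusted p = 0.0005341). Neither gene's groups overlapped. PSMB1, a beta-ring subunit, stood at 27.8 to 50.3 CPM in DMSO and 109, 70.5, 90.6 and 104 CPM in NVP-2, and PSMA7 at 125 to 188 CPM and 353, 286, 409 and 198 CPM, both without overlap. PSMD1, a large scaffold of the cap, stood at 871, 806, 1231, 564 and 534 CPM and 1038, 1985, 2491 and 2969 CPM, with overlap. The changes were 1.32 for PSMB1, 1.08 for PSMA7, 1.37 for PSME1 and 1.4 for PSMD1, all within the TMM-scaled pool and all lower when scaled by all reads (-1.89, -2.11, -1.91 and -1.88). Against batch 2 NEG 4 h or DMSO 12 h libraries PSME1 and PSMD1 did not pass, and the 12 calls became 7 with the library set as a term and 6 without DMSO library 1.2, 2.1 or 2.2.

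In T3M-4 PSMB10 stood at 24.4, 25.3, 15.6 and 18.1 CPM in DMSO and 165, 159, 103 and 120 CPM in NVP-2 (2.71 ± 0.30, edgeR adjusted p = 0.0004174). PSMA7 went from 56.3, 38.1, 64.5 and 55.8 CPM to 160, 194, 293 and 319 CPM (2.17 ± 0.32, edgeR adjusted p = 0.001083). PSMG3 went from 150, 126, 188 and 181 CPM to 38.9, 44, 83.8 and 65.1 CPM (-1.48 ± 0.31, edgeR adjusted p = 0.006744). The groups did not overlap in these 3 genes. PSMG1 went from 16.4, 16.7, 15.9 and 16.3 CPM to 47.3, 47.7, 50.9 and 90.8 CPM (1.86), and PSME4, the nuclear activator PA200, from 18.6 to 23.3 CPM to 29.7, 103, 60.6 and 111 CPM (1.86). PSMA5 (1.76) was also higher on this scale, and scaled by all reads these 3 genes, PSMB10 (-0.26) and PSMA7 (-0.91) were lower. The catalytic subunits PSMB5, PSMB6 and PSMB7 passed in neither line, with changes of -0.73 to 0.64.

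The effect of NVP-2 on T>C reads differed between the lines for 1 of 43 genes, PSMA4 (interaction -3.38 ± 0.44 log2 in T3M-4 relative to AsPC-1, edgeR adjusted p = 0.0007163; 0.851% of 13159 genes called). On the TMM scale PSMA4 was higher in all 4 AsPC-1 NVP-2 libraries than in any AsPC-1 DMSO library. In T3M-4 it averaged 253 CPM in DMSO and 200 CPM in NVP-2. Over the alternatives the interaction stayed between -3.57 and -3.17. In AsPC-1 batch and treatment coincide in this comparison, so that range cannot tell them apart. Nor can it tell new RNA from T>C reads of another source. Another 7 members had an unadjusted p under 0.05 and did not pass, among them PSMA7 (1.06, edgeR adjusted p = 0.2083) and PSMB10 (1.27).

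Among the 26 other genes of the pathway, calls with NVP-2 were about as frequent as among all genes. In AsPC-1, 4 were higher on the TMM scale (12.9% of all genes; among them UBB 1.16, SEM1 0.80 and USP14 0.66) and 3 lower (17.6% of all genes; NFE2L2 -2.08, AKIRIN2 -1.46 and NFE2L1 -1.41). NFE2L1 is the factor that drives proteasome genes, NFE2L2 its stress-responsive relative and AKIRIN2 the adaptor that carries proteasomes into the nucleus. In T3M-4, 3 were higher (12.4% of all genes; among them UBB 1.82 and NGLY1 1.19) and 4 lower (14.2%; among them AKIRIN2 -3.05, ZFAND5 -2.37 and NFE2L2 -1.51). AKIRIN2 and NFE2L2 were lower in both lines, and all 26 had a lower labelled share in both.

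Relative to other genes, the all-reads levels of the proteasome transcripts changed little in 4 h of NVP-2. These levels are TMM-scaled without a spike-in, so a fall common to most transcripts would not show in them. In AsPC-1, 3 of 43 were higher in all reads (3.43% of 14095 genes called higher), PSME2 (0.95 ± 0.25, edgeR adjusted p = 0.03056), PSME1 (0.54) and PSMB1 (0.75), and 0 were lower. PSME2 stood at 52.7, 41.5, 78.0, 35.9 and 47.4 CPM in DMSO and 118, 109, 68.1 and 100 CPM in NVP-2, with 1 DMSO library inside the NVP-2 range. PSME1 stood at 122 to 176 CPM and 214, 213, 197 and 209 CPM, and PSMB1 at 49.4 to 66.2 CPM and 130, 71.1, 71.9 and 114 CPM, both without overlap. In T3M-4 0 of 43 were called (5.16% of 15653 genes), with 1 at an unadjusted p under 0.05 and 0 by DESeq2. That one was PSMD12, at 97.3, 98.7, 77.7 and 79.8 CPM in DMSO and 70.9, 63.8, 64.2 and 73.6 CPM in NVP-2 (-0.38 ± 0.15, edgeR adjusted p = 0.2397). The median over the 43 was 0.28 in AsPC-1 and 0.18 in T3M-4, each against 0.06 over all genes, and 33 and 27 of the 43 lay above 0.

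The 3 calls in AsPC-1 did not hold. They fell to 0 with batch 2 NEG 4 h libraries, with DMSO 12 h libraries or with the library set as a term, to 1 without set A, and to 0 without DMSO library 1.2, 2.1 or 2.2 or NVP-2 library 2.2. Without NVP-2 library 1.1 they became 8, and without DMSO library 1.1 or NVP-2 library 1.2 they became 1. Among the pathway genes, NFE2L2 fell in all reads in both lines (-1.63 and -0.80), and ZFAND5 and AKIRIN2 fell in AsPC-1.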

How the data were processed

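SLAM-seq libraries of 2 cell lines were compared by group. The authors ran slamdunk with default options on single-end 3′ reads, with hg38 as the genome and 3′UTR exons of GENCODE v44 as the counting windows. The deposited values were raw counts per gene, without normalization, in tables of T>C reads and of all reads for each line, with 29794 genes and 0 rows without a gene name. The tables held 18 empty unnamed columns, and 1 all-reads column was left out because it repeated another library's column. Reads of near-identical gene copies may be split or counted more than once, and the tables hold T>C reads whatever their source. The annotated 3′UTRs of PSMA1, PSMA2, PSMA6, PSMB10, PSMD9 and PSMF1 overlap exons of another gene on the same strand. Reads in such an overlap cannot be assigned to 1 gene.

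T>C and all-reads counts were tested with edgeR 4.0.16 (filterByExpr, TMM, quasi-likelihood F test) in R 4.3.3, on the groups compared only, with interaction terms for differences between lines. Labelled shares were tested with limma 3.58.1 (no trend, not robust) on log2((T>C + 0.5)/(all + 1)), for genes with a mean of at least 50 reads. Benjamini-Hochberg adjusted p-values over all genes tested were called under 0.05. The SE of an edgeR fold change is its size over the square root of F. Intervals for counts of 0 cover counting error only. DESeq2 1.42.0, no filter, scaling by all reads, other controls, a replicate block and leaving out libraries were alternatives. Python 3.11.15 with pandas 2.3.3 made the summaries. The fits were tested on simulated data.

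The members, lists and tests were chosen with earlier results of these data known. Per-library values are given for up to 6 called members with the smallest p of a comparison (of the 2 smallest where none was called, at least the first), the extremes of the labelled share, the catalytic subunits and members named in the text after their values were seen. The library sets and the alternatives built on them were added after seeing the data. Same-numbered libraries deviated together in dTAG against NEG of AsPC-1 (every pair's correlation over 0.1, from 0.264 to 0.544) and T3M-4, in CB-6644 of T3M-4 and at 12 h. There the numbers are read as pairs, but the main fits used no pairs, which entered only in the replicate block. A treated library correlated best with its own number in 5 of 10 pairs (dTAG AsPC-1) and 3 of 4 (dTAG T3M-4). For CB-6644 this held in 1 of 4 (T3M-4) and 2 of 4 (12 h), so the numbers may not mark pairs there. Libraries that share a batch or a library set can also deviate together without being pairs. Some genes of the pathway list were counted but are not reported here by name.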

Additional observations from a re-analysis of the deposited data

Results flagged for a closer look

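Of 88 groups of 4 to 10 libraries examined, 4 held a library far from the others by Dixon's criterion, which chance gives in about 1 of 20 groups. The summed level of the 43 proteasome genes in the AsPC-1 DMSO 4 h libraries was highest in library 1.3, at 8086.54 CPM against 5291.74 to 6015.38 in the other 4, and this library belonged to set A. The summed T>C level in the T3M-4 NEG libraries was highest in library 2.2, at 6503.15 against 6092.04 to 6153.43. In the AsPC-1 NVP-2 libraries, the labelled share was highest in library 1.1 for the catalytic subunits PSMB6, at 0.607% against 0.415% to 0.423%, and PSMB7, at 0.621% against 0.392% to 0.429%.

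The effect of NVP-2 on TMM-scaled T>C reads differed between the lines for PSMA4, by an interaction of -3.38 on the log2 scale (edgeR adjusted p = 0.0007163). On that scale PSMA4 was higher in 4 of 4 AsPC-1 NVP-2 libraries than in any DMSO 4 h library of that line. Scaled by all reads, its change in AsPC-1 was -0.21, and batch and treatment coincide there. T>C reads of a source other than labelling cannot be told from new RNA in this gene.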

How the results depend on the processing

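Over all alternatives, 333 of 369 values, nearly all counts of calls, stayed within 1.5 times the reported count and in the same balance of directions. Counts of 0 that stayed 0 are included, as for dTAG and CB-6644 in T>C and all reads, so this figure says little about comparisons with calls. Of 1120 values of named genes, 1020 kept their sign and call status, 88 lost the call, 11 changed sign and 1 gained a call. Within deciles of 3′UTR length, an alternative chosen after seeing the data, the median percentile of the 43 labelled shares moved to 34.2 in AsPC-1 and 31.0 in T3M-4. Halving the PSMA7 counts of T3M-4, also chosen then, moved its line difference to -2.0. For NVP-2 in T>C reads, scaling by all reads turned 12 and 11 calls into 42 lower in AsPC-1 and 41 lower in T3M-4. It reversed PSMA4 (-0.21), PSMB1 (-1.89), PSMA7 (-2.11), PSME1 (-1.91) and PSMD1 (-1.88) in AsPC-1 and PSMB10 (-0.26), PSMA7 (-0.91), PSMA5 (-1.25), PSMG1 (-1.21) and PSME4 (-1.11) in T3M-4. With the library set as a term, AsPC-1 gave 7 calls, and leaving out 1 library gave 6 to 11. For NVP-2 in all reads of AsPC-1, the 3 calls became 1 without set A or without the filter, 0 with the library set as a term, with NEG 4 h libraries of batch 2 or with DMSO 12 h libraries, 7 with DESeq2 and 0 to 8 when 1 library was left out.

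The replicate block gave 2 calls in all reads of NVP-2 in T3M-4, where 0 were reported and the lowest correlation of a pair was 0.079, and changed no other count by over 1.5 times. The block was not fitted for the direct difference of lines, and for the interactions it was set within each line. For CB-6644 4 h and NVP-2 in AsPC-1 the lowest correlations were -0.0826 and -0.0463, so their numbers were not taken as pairs, although those of CB-6644 and DMSO numbered 2.1 and 2.2 all lay in set C.

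The labelled share after dTAG in AsPC-1 gave 0 calls relative to the library, in batch 2 alone and without experiment 1, and 9 without experiment 2. With NVP-2, 12 and 13 calls were made relative to the library. Between lines, the share gave 10 calls against NEG set A, 11 against sets B and C, 10 relative to the library with the balance reversed, and 1 to 6 when 1 library was left out. In all reads after dTAG in AsPC-1, PSMG2 moved to -0.0081 without experiment 3. The causes were not tested. Depth limits PSMD10 under NVP-2, with 0 T>C reads in 2 libraries, and shares of 0.3% to 1% rest on few T>C reads and on the unknown background of conversions.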
